A study of Homo sapiens with 4 samples.

Results

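The 7 genes for the inhibitors of the cyclin-dependent kinases were followed in K562 cells that carried the RUNX1::ERG fusion or an empty vector, out of 25702 genes in the count files. They were taken by name, as the 3 members of the CIP/KIP family (CDKN1A, CDKN1B and CDKN1C) and the 4 members of the INK4 family (CDKN2A, CDKN2B, CDKN2C and CDKN2D). The genes were thus selected by family, but the families were chosen with earlier results of these libraries in view, namely the rise of CDKN1A and the lack of reads for CDKN2A and CDKN2B, so the fold changes of the 7 genes are given as a description and without a test. Of the 7 genes, 5 passed the filter on low counts and CDKN2A and CDKN2B did not.

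K562 is an established human myeloid leukemia line with erythroid features. The cells received the LeGO-iG2 plasmid, which also makes green fluorescent protein, with the coding sequence of RUNX1::ERG or with no insert (the empty vector, genotype control in the labels), and no further treatment is recorded for either group. Messenger RNA selected by its poly(A) tail was sequenced across the transcriptome (WTS) in 2 libraries per group. The fusion was made from a plasmid in a transient transfection, so its level is not that of the native locus. The sources used here do not say whether transfected cells were sorted before RNA was taken. The paper reports that its protocol consistently transfected most of the K562 cells, judged by green fluorescent protein. In bulk RNA, more cells with a transcript and more transcript per cell cannot be told apart.

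Library totals ran from 59695387 to 82352144 counts. ERG, at 4 counts in both controls, reached 80443 and 27218 in RUNX1::ERG libraries 1 and 2, and RUNX1 had 4736 and 3453 against 66232 and 28769, so both labels matched their libraries. After scaling to library size, RUNX1::ERG library 1 held 2.52 times the ERG level of library 2. All 11 markers of the K562 label were detected, among them the globin genes HBE1 and HBG2. With edgeR, 2 of the 11 were called higher with RUNX1::ERG, against 3.64% of all tested genes. These were TAL1 and EPOR, by 0.68 and 0.87 on the log2 scale. Of 14 markers of other cell types, 10 were tested and 3 were higher with RUNX1::ERG by edgeR (COL1A1, PECAM1 and CD14, by 2.42, 2.96 and 3.24 on the log2 scale), against 3.64% of all tested genes. With the empty vector, EPCAM and CD3D were the most abundant of the 14, and neither passed the test. Their means were lower with RUNX1::ERG without overlap, EPCAM at 56.8 against 78.3 CPM (counts scaled to library size) and CD3D at 22 against 33.6. With RUNX1::ERG, the called PECAM1 and COL1A1 were about as abundant as CD3D, at 24 and 20.8 CPM against 3.08 and 3.88. The B cell gene MS4A1 was at 0 in all 4 libraries, and the summed level of the 14 was 120 and 127 CPM with the empty vector and 132 in both RUNX1::ERG libraries. The part of these markers in the values that follow was not tested.

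Cyclin-dependent kinases drive the cell cycle when a cyclin is bound to them. The INK4 proteins p16, p15, p18 and p19 bind CDK4 and CDK6 and keep D-type cyclins from activating them, and the CIP/KIP proteins p21, p27 and p57 bind assembled cyclin and kinase complexes, above all those of CDK2. Both families act ahead of the phosphorylation of RB, which holds E2F transcription factors in check, and in blood cells they are known for roles in quiescence and in leaving the cycle during maturation.

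Of the CIP/KIP genes, CDKN1A differed most between the groups. CDKN1A (NCBI gene 1026; GRCh37 chromosome 6, 36644237 to 36655114, plus strand) encodes p21, the inhibitor best known for its rise after DNA damage. It had 1577 and 1734 counts with the empty vector and 8911 and 5487 with RUNX1::ERG. Levels are given from here on as normalized CPM, which are counts scaled to a common library total with TMM factors (trimmed mean of M-values), and for CDKN1A they were 26.2 and 24.6 with the empty vector and 106 and 76.3 with RUNX1::ERG. Both RUNX1::ERG libraries thus lay above both controls, and the gap between the RUNX1::ERG libraries was wider than that between the controls. The mean was 25.4 ± 1.13 (SD, n = 2) with the empty vector and 91 ± 20.8 (SD, n = 2) with RUNX1::ERG, a log2 fold change of 1.84 with a standard error (SE) of 0.19, or 3.59-fold.

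CDKN1B (NCBI gene 1027; chromosome 12, 12838432 to 12875303, plus strand) encodes p27, which restrains CDK2 in resting cells and is removed before S phase through SKP2. Its normalized CPM was 65.6 and 50.1 with the empty vector and 61.2 and 58.1 with RUNX1::ERG, and the RUNX1::ERG libraries lay between the controls. The means were 57.9 ± 10.9 and 59.7 ± 2.25 (SD, n = 2 each), with a log2 fold change of 0.04 (SE 0.18). The sign of that difference rested on empty vector replicate 2, without which it was -0.14, and an effect within its SE does not show that the groups were alike.

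CDKN1C (NCBI gene 1028; chromosome 11, 2904443 to 2907005, minus strand) encodes p57, an imprinted gene linked to quiescence of blood stem cells. Its normalized CPM was 20.3 and 21.8 with the empty vector and 35.3 and 27.3 with RUNX1::ERG. The groups did not overlap, and the difference was small beside that of CDKN1A, with means of 21.1 ± 1.06 and 31.3 ± 5.72 (SD, n = 2 each) and a log2 fold change of 0.57 (SE 0.20). Without RUNX1::ERG replicate 1 it was 0.37.

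Of the INK4 genes, CDKN2C was the more abundant and CDKN2D had the larger fold change. CDKN2C (NCBI gene 1031; chromosome 1, 51426417 to 51440306, plus strand) encodes p18, an inhibitor of CDK6 and CDK4 that is active in maturing blood cells. Its normalized CPM was 115 and 107 with the empty vector and 175 and 151 with RUNX1::ERG, so that the groups did not overlap. The means were 111 ± 5.8 and 163 ± 17.1 (SD, n = 2 each), with a log2 fold change of 0.55 (SE 0.16).

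CDKN2D (NCBI gene 1032; chromosome 19, 10677136 to 10679735, minus strand) encodes p19, which is distinct from the ARF protein of the CDKN2A locus. It had 370 and 320 counts with the empty vector and 1409 and 1005 with RUNX1::ERG, or 6.14 and 4.54 against 16.7 and 14 normalized CPM. Each RUNX1::ERG library was more than 2 times the higher control. The means were 5.34 ± 1.14 and 15.3 ± 1.93 (SD, n = 2 each), with a log2 fold change of 1.52 (SE 0.24), or 2.88-fold.

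**Figure D1:**
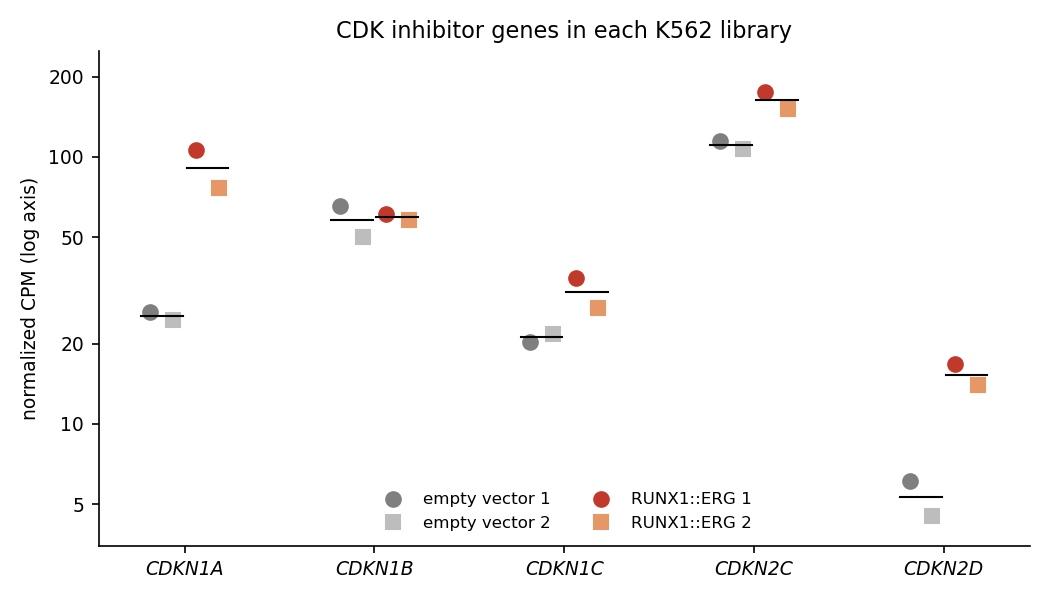
Normalized CPM (vertical log axis) of the 5 CDK inhibitor genes with counts, with a point for each library and a line for each group mean. CDKN1A and CDKN2D stood well apart between the groups and CDKN1B overlapped. CDKN2A and CDKN2B, at 0 counts in all 4 libraries, are not drawn.

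By their fold changes, CDKN1A was number 452 and CDKN2D number 599 from the top among the 15394 genes tested. edgeR at an adjusted p of 0.05 called 4.79% of all tested genes in either direction, 3.64% higher and 1.15% lower, and 2 of the 5 tested inhibitor genes, CDKN1A and CDKN2D, were past that threshold, both higher. Both RUNX1::ERG libraries lay above both controls in 4 of the 5 tested inhibitor genes and in 25.1% of all tested genes. Nothing is read from these counts, since the same contrast was known when the families were chosen. CDKN1C and CDKN2C lay at the 86.6 and 86.2 percentile of all fold changes, and CDKN1B lay at 55.4, close to the middle.

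**Figure D2:**
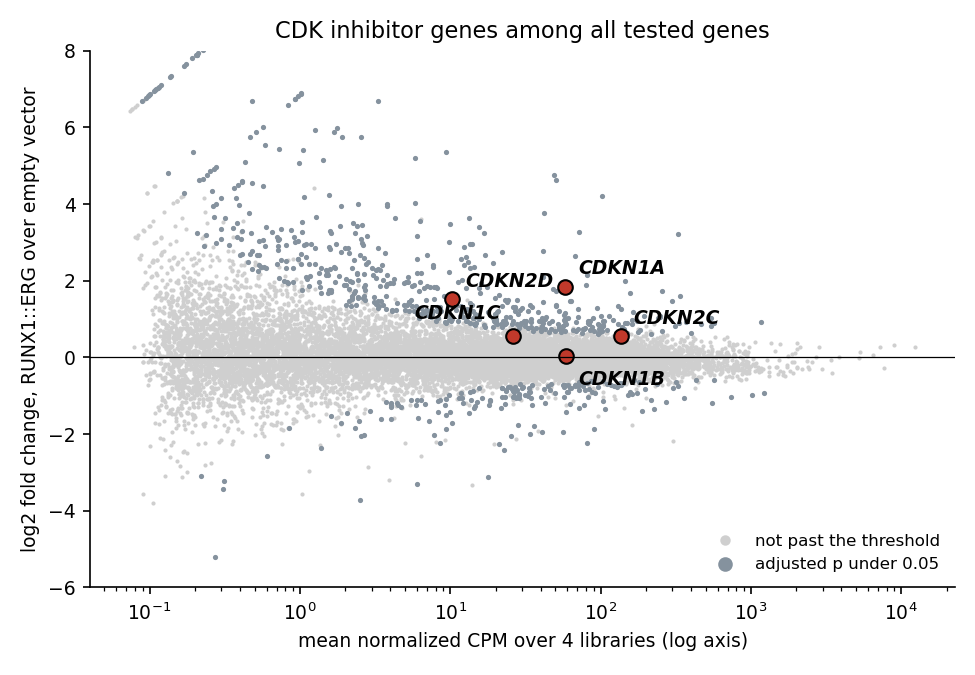
Log2 fold change (RUNX1::ERG over empty vector, vertical axis) against mean normalized CPM over 4 libraries (log axis) of the tested genes, dark where the adjusted p of edgeR was under 0.05, with the 5 tested CDK inhibitor genes marked and 15 genes above the axis limit of 8 not drawn. CDKN1A at 1.84 and CDKN2D at 1.52 sit in the upper part of the cloud, and CDKN1B at 0.04 sits at its centre.

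In all 5 tested inhibitor genes, RUNX1::ERG library 1 was above library 2. The share of all tested genes in that order was not counted, so nothing is read from it. The ratio of library 1 to library 2 was 1.38 for CDKN1A, 1.3 for CDKN1C, 1.2 for CDKN2D, 1.16 for CDKN2C and 1.05 for CDKN1B. Between the controls, which carry no fusion, the ratio of library 1 to library 2 was 1.35 for CDKN2D and 1.31 for CDKN1B, wider than between the RUNX1::ERG libraries, and it was 1.06 for CDKN1A, 1.08 for CDKN2C and 0.931 for CDKN1C. The part of the amount of fusion transcript in these values was not tested. With each library left out in turn, the log2 fold change ran from 1.59 to 2.04 for CDKN1A and from 1.32 to 1.75 for CDKN2D.

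To set the genes beside each other, levels were divided by the length of the exons of their coding transcripts. Per kilobase, with the empty vector, CDKN2C was the most abundant at 36.7 ± 1.92 normalized CPM (SD, n = 2), followed by CDKN1B at 12.9 ± 2.43, CDKN1C at 10.8 ± 0.546, CDKN1A at 10.3 ± 0.459 and CDKN2D at 3.55 ± 0.754. CDKN1B, CDKN1C and CDKN1A lay within the spread of their neighbours in that order, and CDKN2C and CDKN2D lay outside it. With RUNX1::ERG, CDKN2C was again first at 53.9 ± 5.65 and CDKN1A was next at 37.1 ± 8.46, ahead of CDKN1C at 16.1 ± 2.94, CDKN1B at 13.3 ± 0.5 and CDKN2D at 10.2 ± 1.28. CDKN1C and CDKN1B did not differ beyond their spread in that group.

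The middle of the order depended on the length used. With the length of the single representative transcript of each gene, CDKN1B stood at 24 ± 4.53 per kilobase with the empty vector, above CDKN1A at 12 ± 0.533 and CDKN1C at 11.9 ± 0.599 by more than the spread. With RUNX1::ERG, CDKN1B at 24.7 ± 0.932 was then above CDKN1C at 17.6 ± 3.22, the reverse of the order given by all exons. CDKN2C was first and CDKN2D last in both groups with either length.

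The ratio of CDKN1A to CDKN1B per kilobase was 0.73 and 0.897 with the empty vector and 3.16 and 2.41 with RUNX1::ERG, so p21 transcript went from below p27 transcript to above it. With the representative transcripts, the ratios were 0.455 and 0.558 against 1.97 and 1.5, with the same change of order. Of the summed level of the 5 genes per kilobase, CDKN1A took 13.9% with the empty vector and 28.4% with RUNX1::ERG. CDKN2C took 49.4% and 41.3%, and CDKN2D took 4.77% and 7.81%. With the representative transcripts the shares were 7.35% and 16.6% for CDKN1A, 68.3% and 63% for CDKN2C and 2.3% and 4.15% for CDKN2D, each in the same direction. With the exon lengths of all coding transcripts, the sum itself was 77.9 and 70.8 with the empty vector and 144 and 117 with RUNX1::ERG.

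CDKN2A and CDKN2B gave no signal to compare. CDKN2A (NCBI gene 1029; chromosome 9, 21967751 to 21995300, minus strand) encodes p16 and, from another reading frame, ARF, and CDKN2B (NCBI gene 1030; chromosome 9, 22002902 to 22009304, minus strand) encodes p15. Both had 0 counts in each of the 4 libraries. At 3 counts for an observed 0, the upper limit ran from 0.0364 to 0.0503 CPM by library, which covers counting error only. The 2 genes are known to be deleted in K562.

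The genes around them had almost no counts either. From HACD4 to TUSC1, which span 4.68 Mb of chromosome 9 (20999508 to 25678442), 28 genes were listed, and 27 had 0 counts in all 4 libraries. The exception was KLHL9, with 4 counts in empty vector library 1 and 0 in the others. Of all 25702 listed genes, 17713 to 18910 had counts, depending on the library, so a 0 in a single gene is common. The stretch includes MTAP, a methionine salvage gene that most cells express, and CDKN2B-AS1, the antisense RNA of the locus, both at 0, and also the type I interferon genes, which resting cells leave silent and for which a 0 says little.

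On both sides of the stretch the counts returned. FOCAD had 156 and 98 counts with the empty vector and 136 and 130 with RUNX1::ERG, and CAAP1 had 1558 and 1566 against 1850 and 1704. The counts were thus of one order in all 4 libraries. PLAA, further out, had 1728 and 2449 against 2297 and 2428. Not every gene outside the stretch had many counts. MLLT3, beyond FOCAD, had 16 and 31 against 20 and 21, and TEK, beyond PLAA, had 2 and 0 against 2 and 2.

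**Figure D3:**
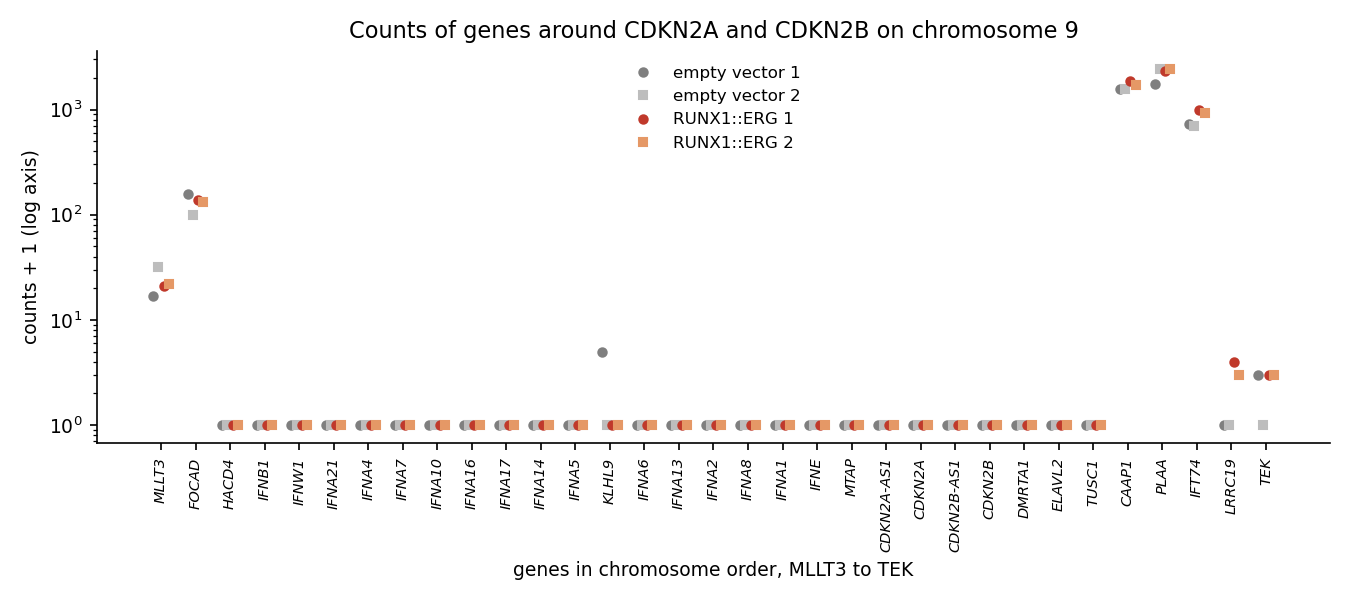
Counts plus 1 (vertical log axis) of genes along chromosome 9 around CDKN2A and CDKN2B, in chromosome order and with a point for each library. MicroRNA genes are left out. The run of genes from HACD4 to TUSC1 lies at 0 apart from 4 counts of KLHL9 in 1 library, and FOCAD and CAAP1 at its edges have counts in all 4 libraries.

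The 250 bases ahead of the RefSeq transcription start (GRCh38.p14) were searched, because RUNX1::ERG keeps the Runt and Ets DNA-binding domains and the inhibitor genes moved unequally. The letters searched on both strands were TGTGGT and TGCGGT for RUNX proteins, GGAAGT for ETS proteins, CACGTG for the E-box bound by MYC and GGGCGG for SP1, and no motif holds another. Those letters were found in 11%, 5.84%, 19.5%, 6.34% and 42.6% of all 35116 windows of that length. The windows of CDKN1A (chr6:36678464-36678713, plus strand), of CDKN2D (chr19:10568980-10569229, minus strand) and of CDKN1B (chr12:12717118-12717367, plus strand) are shown 5′ to 3′ for the 2 genes with the largest fold changes and the gene with the smallest, with every match to a searched motif in capitals:
CDKN1A: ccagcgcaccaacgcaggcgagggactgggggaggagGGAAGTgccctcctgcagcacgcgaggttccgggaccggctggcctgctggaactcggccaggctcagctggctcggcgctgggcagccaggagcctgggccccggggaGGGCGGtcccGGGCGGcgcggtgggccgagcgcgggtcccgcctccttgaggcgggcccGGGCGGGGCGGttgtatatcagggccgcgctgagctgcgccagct
CDKN2D: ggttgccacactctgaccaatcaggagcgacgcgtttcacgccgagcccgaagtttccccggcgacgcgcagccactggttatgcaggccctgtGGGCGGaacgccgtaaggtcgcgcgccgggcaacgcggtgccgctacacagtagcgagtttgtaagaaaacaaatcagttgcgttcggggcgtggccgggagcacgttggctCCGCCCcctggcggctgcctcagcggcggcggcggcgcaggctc
CDKN1B: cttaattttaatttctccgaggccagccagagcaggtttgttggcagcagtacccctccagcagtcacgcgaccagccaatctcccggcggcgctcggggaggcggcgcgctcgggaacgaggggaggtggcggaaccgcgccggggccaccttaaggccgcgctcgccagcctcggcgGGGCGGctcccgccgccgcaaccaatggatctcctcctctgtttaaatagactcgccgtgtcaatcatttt

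CDKN1A held 1 ETS match, which starts at -213 from the transcription start, and 4 SP1 matches. CDKN2D held 2 SP1 matches and CDKN1B held 1, with no other match in either. Neither RUNX motif was found in the windows of CDKN1A, CDKN1B, CDKN2A, CDKN2B, CDKN2C or CDKN2D. CDKN2C has 3 windows, of which 2 held the E-box letters and which held 0, 5 and 1 SP1 matches. CDKN2B held 2 SP1 matches, and the 2 windows of CDKN2A held 0 and 1, but neither gene has a fold change to set beside them. Whether the number of SP1 matches goes with the fold changes was not tested. CDKN1C was not searched. A match is a description of the letters and not a binding site, and the lack of one says only that these letters are not in this window.

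The rest of the pathway was read from 5 lists with 111 genes, of which 107 were tested. With edgeR, 3 rose and 4 fell, which is 6.54% of those tested against 4.79% of all genes. The median log2 fold change was -0.05 over the lists and 0.00 over all tested genes. Adjusted p-values are from edgeR's quasi-likelihood test over all 15394 genes. Over all genes, the alternative tests DESeq2 and limma called 1194 and 688. The share of all genes with an unadjusted p under 0.05 was not counted. Nothing is therefore read from the counts by unadjusted p, here or for the genes around CDKN1C.

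Among the CDKs and cyclins, with 21 of 22 genes tested, 1 rose and 1 fell, both of them D-type cyclins, the partners of CDK4 and CDK6. DESeq2 and limma each called 2, and 4 had an unadjusted p under 0.05. CCND3 was at 339 and 379 normalized CPM with the empty vector and 787 and 678 with RUNX1::ERG, and its log2 fold change was 1.03 (SE 0.15, adjusted p = 0.0031). CCND2 was at 48.3 and 36.8 against 25.4 and 23.3, with a log2 fold change of -0.80 (SE 0.19, adjusted p = 0.041). The groups did not overlap for either gene, but the call on CCND2 was lost with library totals as the scaling (adjusted p = 0.067) and without empty vector replicate 1 or either RUNX1::ERG library, where the log2 fold changes were -0.60, -0.87 and -0.76.

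CCND1 did not pass the test, at 19.6 and 29.7 normalized CPM against 26.7 and 20.5. The kinases that the inhibitors bind did not pass it either. The log2 fold change was -0.04 (SE 0.15) for CDK2, -0.09 (SE 0.15) for CDK4 and -0.26 (SE 0.16) for CDK6.

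Among the RB, E2F and DREAM genes, which carry the signal onward from the kinases, 0 of 18 passed edgeR's test, 1 had an unadjusted p under 0.05, and DESeq2 and limma also called 0. Their log2 fold changes ran from -0.60 for E2F5 to 0.46 for RB1. Among the genes for turnover of the inhibitor proteins, 0 of 15 passed, 0 had an unadjusted p under 0.05, and DESeq2 and limma called 0. The range there was -0.33 to 0.12, and the lowest value was that of SKP2, the subunit that marks p27 for destruction, at 46.6 and 62.3 normalized CPM against 38.1 and 48.2.

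Among the transcription regulators of CDKN1A and CDKN1B, edgeR called 0 of 29 higher and 2 lower, HES1 and MYC. Both are known as repressors of inhibitor genes. The log2 fold changes of the list ran from -1.65 to 0.95, and neither end was called. DESeq2 called 4 of the 29 and limma 2, and 7 had an unadjusted p under 0.05. HES1, a Notch target, was at 20.5 and 18.4 normalized CPM with the empty vector and 7.2 and 6.98 with RUNX1::ERG, a log2 fold change of -1.46 (SE 0.21, adjusted p = 0.003). MYC was at 301 and 289 against 134 and 140, a log2 fold change of -1.11 (SE 0.15, adjusted p = 0.002). Neither gene overlapped between the groups, and the 2 libraries of each group lay close together.

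In the fifth list, made of genes known to respond to DNA damage and stress, 24 of 27 were tested, 2 rose and 1 fell. DESeq2 called 2 and limma 3, and 6 had an unadjusted p under 0.05. BTG2, an anti-proliferative gene, was at 52.6 and 57.1 normalized CPM against 140 and 131, a log2 fold change of 1.30 (SE 0.16, adjusted p = 0.00099). TP53INP1, a stress gene, was at 9 and 4.31 against 19 and 14.8, with a log2 fold change of 1.35 (SE 0.32, adjusted p = 0.04), and was no longer called without RUNX1::ERG replicate 1 (1.15, adjusted p = 0.15) or with library totals (adjusted p = 0.06). TNFRSF10B, a death receptor, was at 81.1 and 31.4 against 16.8 and 15.5, with a log2 fold change of -1.80 (SE 0.35, adjusted p = 0.016).

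TNFRSF10B was highest in empty vector library 1, and without it the log2 fold change was -0.96. With DESeq2 the adjusted p of TNFRSF10B was 0.055. The same library stood high for SESN2, at 236 normalized CPM against 51.2 in the other control, and for BBC3, at 54 against 14.4. These genes and GADD45A, at 288 and 147 against 292 and 211, did not pass the test, and neither did MDM2, a ubiquitin ligase gene induced by DNA damage, at 89.3 and 102 against 105 and 126. SESN2 and BBC3 were named after their values were seen. CDKN1A itself did not differ in this way between the controls.

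**Figure D4:**
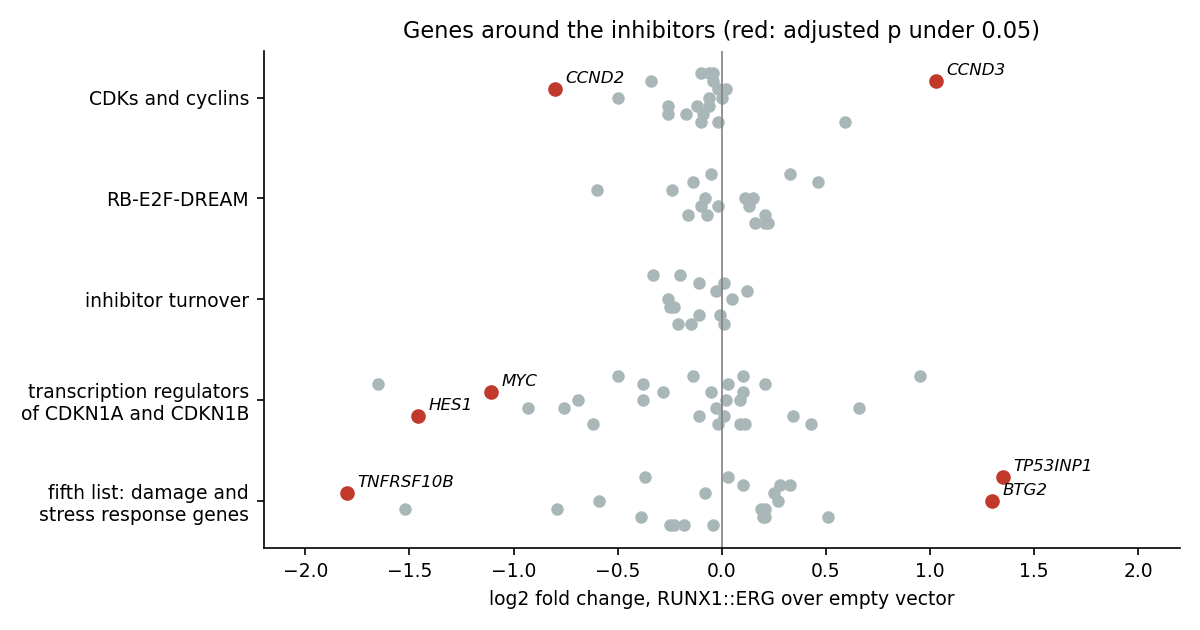
Log2 fold change (RUNX1::ERG over empty vector) of each tested gene in the 5 pathway lists, with genes past an adjusted p of 0.05 in edgeR marked and named. The called genes are CCND3, BTG2 and TP53INP1 above 0 and CCND2, HES1, MYC and TNFRSF10B below it, and no gene of the RB, E2F and DREAM list or of the turnover list is marked.

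Among genes of the count files with a matched position, those nearest to each inhibitor on its chromosome were called about as often as all genes. Of 30 neighbours (3 on each side of the 5 tested inhibitor genes), 22 were tested and edgeR called 1, beside 4.79% of all tested genes. It was TTC39A, which is the third of these genes to the right of CDKN2C. It had 17 and 18 counts against 150 and 124 (log2 fold change 2.70, SE 0.44, adjusted p = 0.0066). CPNE5, the nearest of these genes to the right of CDKN1A, had 37 and 28 counts against 181 and 95. It missed the threshold (log2 fold change 1.78, SE 0.46, adjusted p = 0.052), and SRSF3 on the other side was at -0.04 (SE 0.21).

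CDKN1C lies in an imprinted cluster on chromosome 11. Of the 12 cluster genes in the list, 9 were tested and edgeR called 0, with 1 at an unadjusted p under 0.05 and 0 called by DESeq2 or limma. KCNQ1OT1, the RNA that silences the cluster on the paternal copy, had 742 and 321 counts against 1153 and 1015, with a log2 fold change of 0.72 (SE 0.37, adjusted p = 0.35).

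Counting by strand is not stated in the sources used here, so reads from a gene and an antisense partner cannot be told apart. GPR19, which overlaps CDKN1B on the other strand, had 2 and 8 counts against 35 and 7, few beside the 3951 and 3536 against 5163 and 4174 counts of CDKN1B. CDKN1A overlaps the antisense RNA DINOL, which was not analysed here.

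DMTN, NRGN, PLCB2 and CD82 were among the 5 genes closest to CDKN1A over the 4 libraries. Closeness was the Euclidean distance between log2 normalized CPM centred on each gene's own mean, over 9137 genes with a mean of at least 10 normalized CPM, and for these 4 genes it ran from 0.15 for DMTN to 0.31 for CD82, a tetraspanin. DMTN, an actin-bundling protein of the red cell membrane, was at 76.4 and 71.6 normalized CPM with the empty vector and 268 and 210 with RUNX1::ERG. Their log2 fold changes lay between 1.62 for CD82 and 2.01 for PLCB2, and as genes chosen for their likeness to CDKN1A they are a description with no test.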

How the data were processed

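Per gene, the authors deposited unnormalized read counts for each of the 4 K562 libraries (2 with the empty vector, 2 with RUNX1::ERG), listed by NCBI gene number. The submitters' processing notes name HISAT2 2.2.1, featureCounts 2.0.1 and hg19. The annotation, the strand setting and whether both mates of a pair were counted are not given in the sources used here. Of counts from 1 to 10, 66.7% to 68.9% were even, so a count may not be an independent read and the limits for a count of 0 are then too low.

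Gene numbers were joined to RefSeq symbols (92.2% of 25702 genes matched), and positions and lengths are those of GENCODE on GRCh37 (88.5% matched). In R 4.3.3, counts were scaled by TMM, low counts were filtered by the default of edgeR 4.0.16, and the remaining 15394 genes were fitted by its quasi-likelihood method, without a replicate block and with Benjamini-Hochberg adjusted p-values. The threshold was an adjusted p of 0.05, which 737 genes passed. The SE of a log2 fold change was computed from the fold change and its F statistic. A permutation of 2 against 2 libraries cannot give a p below 0.333, so none is reported for a single gene. The labels do not say that replicates were separate cultures, and p-values measure the spread between these libraries. Replicates differed by far more than counting error, with a chi-square per degree of freedom of 88.7 and 67.6. Each library was counted as its own sample, but that spread does not show that the libraries were independent.

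The members and lists were chosen with earlier results of these data known. Named genes were the 7 members, the 5 genes nearest CDKN1A, up to 4 called genes per pathway list with the largest fold change, chromosomal neighbours, and ERG and RUNX1, and some genes that this rule takes are not reported here. Other genes are named only as range ends, pathway parts or as stated. Lists not quoted by gene are given as counts. The 12 alternatives changed the scaling, the filter, the test (DESeq2 1.42.0 or limma 3.58.1), the unit of counting (halved counts), the replicate block or the libraries used.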

Additional observations from a re-analysis of the deposited data

How the results depend on the processing

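Of the fold changes of 16 named genes (the 5 tested inhibitors, 4 genes near CDKN1A in pattern and the 7 called pathway genes) under 12 alternatives, 181 stayed in direction and in call, 7 lost their call, 3 gained one and 1 changed sign. The 7 pathway genes were named because they were called, and the 4 genes for their likeness to CDKN1A. That tally was thus partly set by the choice of genes. The sign change was that of CDKN1B (-0.14 to 0.25 with a library left out, below 0 without empty vector replicate 2). The gains were those of CDKN2C, which lay past the threshold with no filter on low counts, with the replicate block and with DESeq2. Nothing is read from calls on the inhibitor genes, since the families were chosen with this contrast in view. Over all genes, the count called was 737, and it was 1500 with no filter and 1194 with DESeq2. It ran from 286 (without RUNX1::ERG replicate 1) to 1336 (without empty vector replicate 2) with a library left out, and was 1227 without empty vector replicate 1, where the lone library of a group is assumed to vary like the other group. The share of calls that were higher was 76%, against 64.1% with no filter and 54.9% without empty vector replicate 2. The pathway lists held 7 called genes, 13 with no filter and from 5 to 15 with a library left out, with 15 reached without empty vector replicate 2. The cause of these differences was not tested.

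The labels give both groups replicates 1 and 2 without stating a shared batch. With the replicate number as a block, edgeR called 1733 genes (62.4% higher) and 12 genes of the pathway lists. Same-numbered libraries deviated together with a correlation of 0.349 over the tested genes, which with 2 pairs does not show that the numbers pair the samples.

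With 2 libraries per group, small differences such as those of CDKN1B, CDKN1C and CDK6 are bounded only by their SE. Counts of 0 in CDKN2A and CDKN2B limit the RNA and not the gene copy.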
